A study of Arabidopsis thaliana with 24 samples.

Results

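The 46 genes described here are core low-oxygen response genes of Arabidopsis thaliana, the transcripts that plants raise when oxygen runs short. They were taken by gene identifier from a list of fermentation enzymes, sucrose synthases, plant cysteine oxidases, transcription factors, a hemoglobin and low-oxygen-responsive proteins of unknown function, and all 46 were found among the 33602 genes of the expression table. The study measured root transcriptomes of plants in which POPEYE (PYE), a bHLH transcription factor of the iron-deficiency response, was lost or placed in other root tissues. Seedlings were 7 days old. They grew for 4 days with 0.1 mM FeEDTA and then for 3 days either with the same iron or without FeEDTA and with 300 µM of the iron chelator ferrozine. The 24 samples formed 8 groups of 3. Wild type was sampled with iron (WT +Fe) and without (WT −Fe), and the other 6 groups were all iron-deficient. These were pye-1, whose sample records give the genotype as PYE, and 5 localization lines that differ in the tissues where the GFP signal was recorded. For PPL the recorded GFP code was V-EN-C-EP. SHR23 carries the code V-EN, PEP45 the code C-EN-V, WER13 the code EP-C, and WER65 the code EP alone. The labels do not spell these codes out, and they give neither the promoters nor the genetic background of the lines, nor whether the samples of a group came from separate cultures.

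In plants, oxygen is sensed through the group VII ethylene response factors (ERF-VII), transcription factors that carry a cysteine at the start of the mature protein. Plant cysteine oxidases (PCO) are iron enzymes that use oxygen to oxidize this cysteine, which marks the factor for degradation by the N-degron pathway. When oxygen falls the factors persist and switch on ethanol fermentation, sucrose breakdown through sucrose synthase, a hemoglobin and the PCO genes themselves, so that glycolysis can run without respiration.

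Each group is represented by 1 RPKM value of the authors (reads scaled to gene length and library size). This value is taken here as a mean of 3 libraries and is called the authors' mean. With 1 value per group no standard deviation can be given, and the significance of a difference is that of the authors' deposited tables. Rose and fell are used only of genes listed there, and fold values are ratios of group means. The smallest fold of any gene listed there was 1.49. For differences near or under 1.5-fold, absence from these tables therefore does not show a lack of significance. Low values fell on steps of single reads. The search took each value as a mean of 3 libraries and kept at most 3 steps per group, so it could not show a larger number. The 24 steps kept, 3 in each group, correspond to libraries of 14830000 to 24010000 effective reads. The search looked only within a fixed window of library sizes, so sizes outside that window could not appear. IRT1, the root iron transporter, stood at 237 RPKM in WT +Fe and at 3853 RPKM in WT −Fe. Against WT −Fe, the authors' deposited tables listed IRT1 as lower in pye-1 (q = 1.48e-05), PEP45 (q = 0.000123) and WER65 (q = 0.000635). FRO2, a ferric reductase, was listed as lower in pye-1, SHR23, PEP45 and WER65. FER1, a ferritin, was listed as higher in pye-1, SHR23, PEP45, WER13 and WER65. The part of these differences in the low-oxygen genes was not tested. PYE transcripts were still counted in pye-1, at 20.6 RPKM beside 45.1 in WT −Fe (q = 0.0001 in the authors' deposited table). In the authors' deposited tables PYE was also listed as lower in PPL (q = 0.0178), PEP45 (q = 0.00111) and WER65 (q = 0.000307). It was not listed in SHR23 or WER13. Of 10 root tissue markers, 9 reached 1 RPKM in WT +Fe and 8 in each other group. The cortex marker CO2 stayed under 1 RPKM in all 8 groups. Transcripts of green tissue, 15 photosynthesis genes, differed widely between groups, and their summed level is given beside the summed level of the low-oxygen genes at the end. In whole roots, fewer cells of a type and less RNA per cell cannot be told apart.

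The promoters of 3 of the 46 genes held AAACCA followed by any 3 bases and GC, called the extended pattern here. It is a loosened form of the hypoxia-responsive promoter element, the sequence through which ERF-VII factors are known to act. The search covered 300 bases before each annotated gene start on both strands, in RefSeq sequence of the build TAIR10.1. Among them are ADH1 (alcohol dehydrogenase, the last enzyme of ethanol fermentation) and AT4G10270 (a small protein of the wound-responsive family), and the stretch of each of these promoters that holds the matches is printed because it carries the pattern. Capitals mark the extended pattern and, in ADH1, the G-box CACGTG. The ADH1 stretch lies at chr1:28975077-28975252 on the plus strand and the AT4G10270 stretch at chr4:6374492-6374656 on the plus strand, each written 5′ to 3′ along the gene.
ADH1: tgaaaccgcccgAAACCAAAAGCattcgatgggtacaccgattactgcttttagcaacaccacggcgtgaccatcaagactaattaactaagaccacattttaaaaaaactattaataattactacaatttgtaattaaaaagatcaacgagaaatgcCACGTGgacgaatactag
AT4G10270: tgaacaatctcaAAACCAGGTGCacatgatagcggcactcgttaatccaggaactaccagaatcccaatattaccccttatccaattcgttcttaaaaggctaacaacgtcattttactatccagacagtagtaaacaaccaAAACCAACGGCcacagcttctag
The extended pattern began 166 bases before the gene start in ADH1, and both 230 and 100 bases before it in AT4G10270. Its share was 6.52% of the 46 promoters, beside 0.962% of 27443 promoters of the annotation. The shorter core AAACCA, which every extended pattern contains, was in 16 of the 46 promoters (34.8%) and in 31.8% of all promoters. CACGTG was in 4 (8.7%, beside 7.09%), among them ADH1, PDC2 and AT3G27220. The GCC box GCCGCC, bound by ERF proteins, was in 4 as well (8.7%, beside 2.26%), namely PDC2, AT2G17850, AT4G33560 and AT4G39675. These matches describe letters in a window and are not binding sites, and a promoter without a match may hold other forms of the element.

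Iron deficiency in wild type came with higher levels of most of these genes. The authors' deposited table of WT −Fe against WT +Fe listed 30 of the 46 as higher and 0 as lower, while it listed 10.3% of the 19767 genes that reached 1 RPKM in at least 1 group as higher and 11.7% as lower. The share of the 46 listed as higher was thus 65.2% beside a background of 10.3%. The q-values of the 30 genes in the authors' deposited table ran from 9.83e-07 for SUS4 to 0.0229 for SUS1. On log2(RPKM + 0.5), the median difference of the 45 genes that passed the 1 RPKM filter was 2.16, beside -0.01 for all genes that passed it. Over all 46 genes it was 2.04. By value alone 36 of the 46 were higher in WT −Fe, beside 49.3% of all genes that passed. The 16 genes not listed there are PDC2, HRE1, CML38, ACHT5, ETR2, AT5G45960, AT1G26270, AT5G42200, AT5G47060, AT1G74940, UKL3, AT2G15880, AT3G23170, AT1G19530, AT3G10020 and AT4G39675.

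In pye-1 without iron most of the genes stood higher still. The authors' deposited table of pye-1 against WT −Fe listed 32 of the 46 as higher, beside 8.89% of all genes, and 2 as lower, beside 10.2%. The 2 lower genes were RBOHD and AT5G42200. The median difference was 1.06 on the log2 scale, beside 0.00 for all genes. The lowest q-value among the 32 in the authors' deposited table was 9.41e-06, for PDC2, and the highest was 0.0267, for AT5G66985.

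Among the 5 localization lines, PPL stayed closest to WT −Fe in the median of these genes. The authors' deposited table of PPL against WT −Fe named 0 of the 46 in either direction. That table named 3 genes in all, 0.00506% of all genes as higher and 0.0101% as lower, and unadjusted p-values are not used here. The 0 thus lies at the background. No gene listed in any of the deposited tables differed by less than 1.49-fold, so the 0 does not tell small differences from none. By value, 41 of the 46 were higher in PPL, beside 47.6% of all genes, with a median difference of 0.25 on the log2 scale. Centred on the median of all genes that passed the filter, it was 0.26. In 35 of the 46, PPL lay above WT −Fe and below each of pye-1, SHR23, PEP45, WER13 and WER65, beside 14.8% of all genes.

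SHR23 had 35 genes listed as higher in the authors' deposited table, beside 7.56% of all genes, and 2 as lower, beside 10.6%. PEP45 had 34 listed as higher in the authors' deposited table, beside 8.43%, and 1 as lower, beside 9.64%. In WER13, the authors' deposited table listed 36 as higher, beside 8.99%, and 2 as lower, beside 14.1%. WER65 followed with 35 listed as higher in the authors' deposited table, beside 7.87%, and 2 as lower, beside 11.5%. The lower gene in all 4 lines was AT5G42200, joined by AT3G10020 in SHR23, WER13 and WER65. Median differences from WT −Fe on the log2 scale were 1.14 in SHR23, 1.23 in PEP45, 1.28 in WER13 and 1.28 in WER65, each beside 0.00 for all genes. Every one of these comparisons uses the same WT −Fe samples, as does the comparison of WT −Fe with WT +Fe, so the counts are not independent of each other and are given side by side only. AT5G45960, AT1G26270, AT1G74940 and AT2G15880 were named in none of the 7 tables, and AT5G45960, a GDSL lipase, never exceeded 0.528 RPKM.

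**Figure D1:**
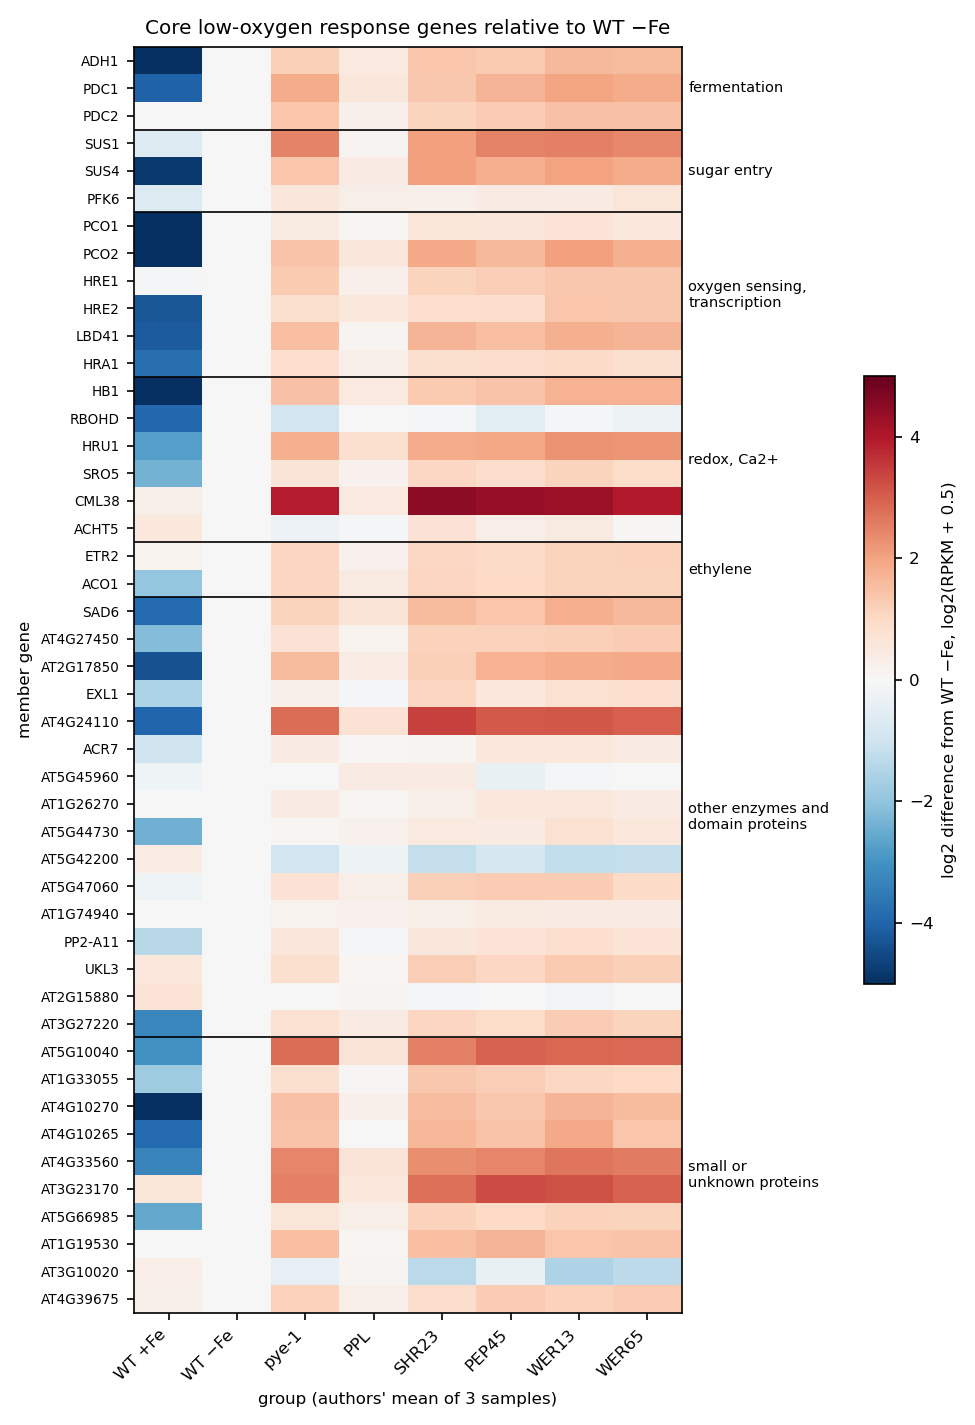
Difference of each of the 46 genes (rows, grouped by role) from WT −Fe in each of the 8 groups (columns), as log2(RPKM + 0.5) of the authors' means; red is higher, blue is lower, and differences beyond 5 take the end colour. The WT +Fe column is blue for most genes, the PPL column is pale throughout, and the pye-1, SHR23, PEP45, WER13 and WER65 columns are red except for RBOHD, AT5G42200, AT3G10020 and a few pale rows.

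Ethanol fermentation takes pyruvate decarboxylase, which makes acetaldehyde, and alcohol dehydrogenase, which reduces it to ethanol and frees NAD+ for glycolysis. ADH1 (chr1:28975255-28977417, TAIR10.1) stood at 2.48 RPKM in WT +Fe, 299 in WT −Fe, 693 in pye-1, 415 in PPL, 774 in SHR23, 735 in PEP45, 932 in WER13 and 904 in WER65. The gene was nearly silent with iron, and all iron-deficient groups lay far above that level, with WT −Fe the lowest of them and PPL next. ADH1 rose 120.5-fold without iron in wild type (q = 1.93e-06 in the authors' deposited table). Against WT −Fe it rose 2.32-fold in pye-1 and 3.12-fold in WER13, with q = 0.000347 and q = 6.88e-05 in the authors' deposited tables. Its 1.39-fold difference in PPL was not listed.

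PDC1 (chr4:15952257-15954803) shared with ADH1 the 3 lowest groups and the highest, with 5.51 RPKM in WT +Fe, 97.2 in WT −Fe, 355 in pye-1, 143 in PPL, 251 in SHR23, 315 in PEP45, 379 in WER13 and 355 in WER65. It rose 17.6-fold without iron (q = 2.94e-06 in the authors' deposited table) and a further 3.65-fold in pye-1 (the authors' deposited table gave q = 1.04e-05). PDC2 (chr5:22310553-22312832), the second pyruvate decarboxylase of the list, did not share the first step. PDC2 stood at 55.1 RPKM in WT +Fe, 54.8 in WT −Fe, 145 in pye-1, 66.3 in PPL, 118 in SHR23, 133 in PEP45, 152 in WER13 and 150.1 in WER65. Its level was thus nearly the same with and without iron in wild type and higher in pye-1 and in the 4 lines other than PPL. PDC2 had the smallest q-value of all 46 genes in the authors' deposited table of pye-1, 9.41e-06, for a 2.64-fold rise. PDC1 shares 87.0% of its aligned bases with PDC3 and 86.6% with PDC4, so reads could be split among these copies by the authors' counting. PDC3 stood at 1.56 RPKM and PDC4 at 0.303 RPKM in WT −Fe, far under PDC1.

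Sugar enters glycolysis under low oxygen mainly through sucrose synthase, which cleaves sucrose at a lower energy cost than invertase. SUS1 (chr5:7050217-7055398) stood at 12.5 RPKM in WT +Fe, 20 in WT −Fe, 114 in pye-1, 22.3 in PPL, 84.7 in SHR23, 115 in PEP45, 118 in WER13 and 109 in WER65. Its values formed a low set of WT +Fe, WT −Fe and PPL and a high set of the other 5 groups, with no value in between. SUS1 rose 1.6-fold without iron (q = 0.0229 in the authors' deposited table), the weakest q-value of the 30, and 5.7-fold in pye-1 (the authors' deposited table gave q = 2.86e-05).

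SUS4 (chr3:15179010-15184105) had the reverse balance between the steps. Its level was 1.77 RPKM in WT +Fe, 64.4 in WT −Fe, 171 in pye-1, 86.4 in PPL, 269.7 in SHR23, 228 in PEP45, 264 in WER13 and 231 in WER65. It rose 36.3-fold without iron (q = 9.83e-07 in the authors' deposited table), and a further 2.65-fold in pye-1 (the authors' deposited table gave q = 0.000118). SHR23 was the highest group for SUS4, at 4.19-fold over WT −Fe (q = 8.78e-07 in the authors' deposited table). PFK6, a phosphofructokinase of glycolysis, moved little, with 4.81 RPKM in WT +Fe, 8.05 in WT −Fe, 12 in pye-1, 9.98 in PPL, 9.74 in SHR23, 10.9 in PEP45, 10.9 in WER13 and 12.7 in WER65. It rose 1.67-fold without iron (q = 0.00408) and 1.57-fold in WER65 (q = 0.00137) in the authors' deposited tables, and was not listed in the others. PFK6 shares 290 bases with a gene on the opposite strand, and the strand setting of the counting is not given in the sources used here.

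The PCO genes encode the iron-dependent oxygen sensors themselves. PCO1 (chr5:4898641-4900734) stood at 1.37 RPKM in WT +Fe, 140.4 in WT −Fe, 192 in pye-1, 151 in PPL, 213 in SHR23, 210.1 in PEP45, 228 in WER13 and 201 in WER65. PCO2 (chr5:15974270-15976270) stood at 0.122 RPKM in WT +Fe, 24.2 in WT −Fe, 65.9 in pye-1, 36.2 in PPL, 92.2 in SHR23, 76.3 in PEP45, 102 in WER13 and 83.9 in WER65. Both were low with iron and higher in all iron-deficient groups, WT −Fe being the lowest of these and WER13 the highest. Without iron PCO1 rose 102-fold and PCO2 199-fold, with q = 1.14e-06 and q = 1.62e-05 in the authors' deposited table. The PCO2 value in WT +Fe corresponds to 11.3 reads over the 3 libraries if the gene length of TAIR10.1, introns included, holds, which limits the precision of that fold. A shorter length would give fewer reads. Against WT −Fe, PCO1 rose 1.62-fold in WER13 (q = 0.000346 in the authors' deposited table), and its 1.37-fold value in pye-1 and 1.43-fold value in WER65 were not listed. PCO2 rose 2.73-fold in pye-1 (q = 0.00573) and 4.23-fold in WER13 (q = 0.00286) in the authors' deposited tables.

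HRE1 (ERF73) and HRE2 (ERF71) are the 2 members of the ERF-VII group that are themselves induced by low oxygen. HRE1 (chr1:27241696-27242968) stood at 31.2 RPKM in WT +Fe, 33.1 in WT −Fe, 83.1 in pye-1, 39.4 in PPL, 72.4 in SHR23, 78.1 in PEP45, 85.6 in WER13 and 84.2 in WER65. HRE2 (chr2:19502776-19503702) stood at 0.855 RPKM in WT +Fe, 26.1 in WT −Fe, 46.3 in pye-1, 37.4 in PPL, 47.4 in SHR23, 48.3 in PEP45, 69.5 in WER13 and 66.5 in WER65. The pair divided as PDC2 and PDC1 did, HRE1 being level in wild type with and without iron and HRE2 rising steeply. HRE2 rose 30.5-fold without iron (q = 1.38e-05 in the authors' deposited table), whereas the 1.06-fold value of HRE1 was not listed. HRE1 then rose 2.51-fold in pye-1 (q = 0.00135) and HRE2 1.77-fold (q = 0.000885) in the authors' deposited table. HRE1 overlaps a gene of the opposite strand by 124 bases.

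LBD41 (chr3:536500-538126), a LOB-domain transcription factor, stood at 5.12 RPKM in WT +Fe, 98.7 in WT −Fe, 279 in pye-1, 109.7 in PPL, 324 in SHR23, 278 in PEP45, 339 in WER13 and 319 in WER65. PPL and WT −Fe were close, and the 5 remaining iron-deficient groups were close to each other, well above them. LBD41 rose 19.3-fold without iron (q = 0.000294) and 3.28-fold in SHR23 (q = 2.67e-06) in the authors' deposited tables. HRA1 (chr3:3096345-3098417), a trihelix factor known to restrain the ERF-VII protein RAP2.12, stood at 2.33 RPKM in WT +Fe, 38.2 in WT −Fe, 68.7 in pye-1, 46.6 in PPL, 66.2 in SHR23, 70.1 in PEP45, 74.4 in WER13 and 66.9 in WER65. It rose 16.4-fold without iron (q = 0.000104) and 1.8-fold in pye-1 (q = 0.00119) per the authors' deposited tables. Of the 6 oxygen-sensing and transcription genes, the authors' deposited tables listed 5 as higher without iron, 5 in pye-1, 6 in SHR23, 6 in PEP45, 6 in WER13 and 5 in WER65, beside 10.3%, 8.89%, 7.56%, 8.43%, 8.99% and 7.87% of all genes.

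**Figure D2:**
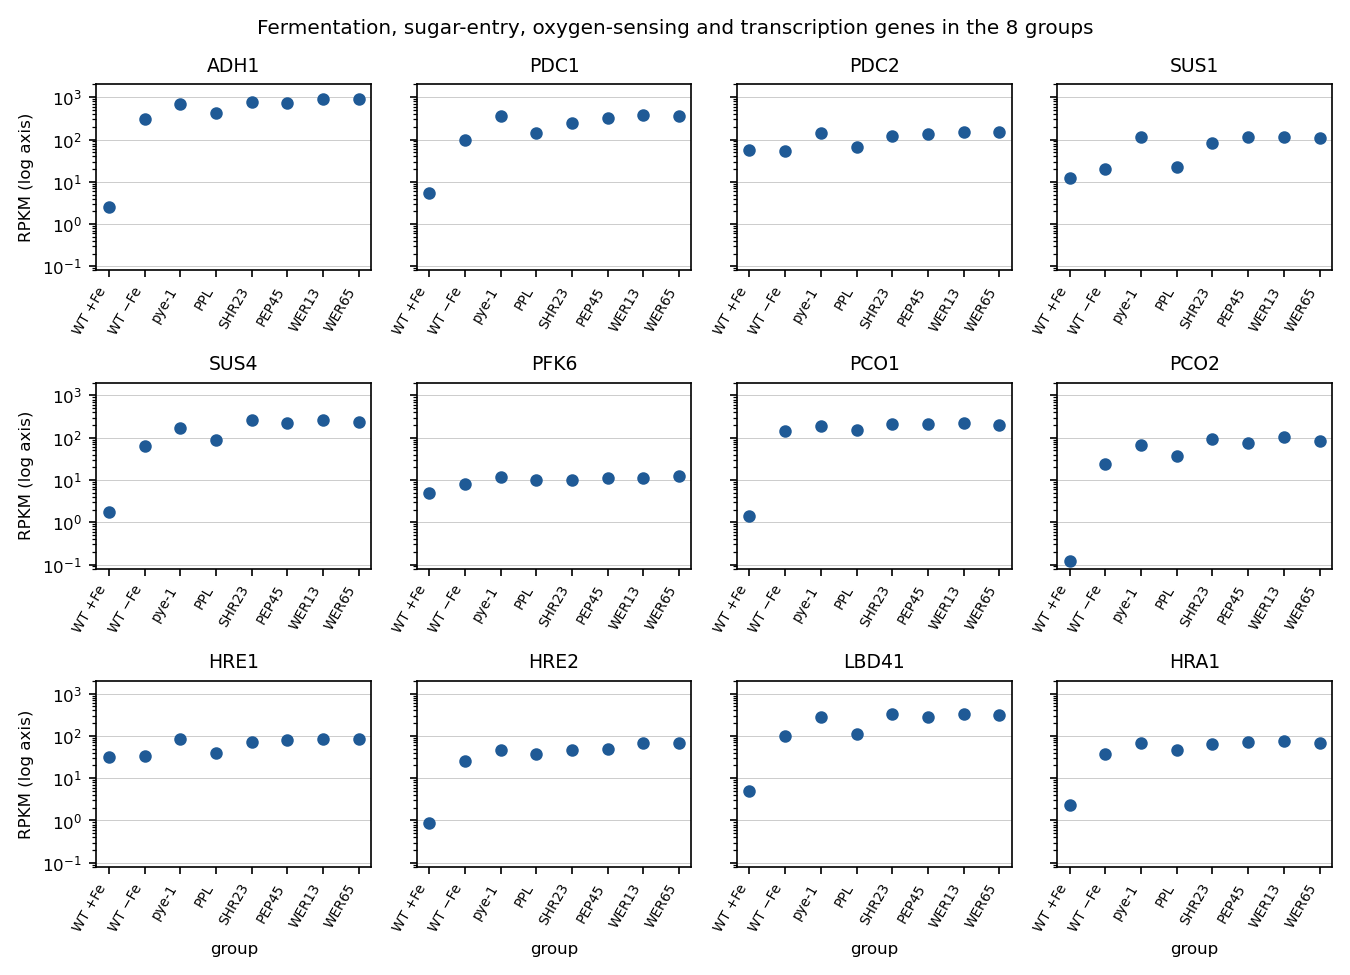
Level of the 3 fermentation genes, 3 sugar-entry genes and 6 oxygen-sensing and transcription genes in the 8 groups, each point being the authors' mean RPKM on a log axis. PDC2 and HRE1 lie at the same height in WT +Fe and WT −Fe, while ADH1, SUS4, PCO1, PCO2, HRE2, LBD41 and HRA1 climb steeply between these groups.

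The redox and signalling genes held a wide range of behaviours. HB1 (chr2:6982531-6983777), a hemoglobin that scavenges nitric oxide under low oxygen, stood at 3.96 RPKM in WT +Fe, 215 in WT −Fe, 594 in pye-1, 299 in PPL, 529 in SHR23, 579 in PEP45, 710.4 in WER13 and 714 in WER65. HRU1 (chr3:761004-763369), a universal stress protein that works with the NADPH oxidase RBOHD, stood at 36.1 RPKM in WT +Fe, 246 in WT −Fe, 835 in pye-1, 429 in PPL, 888 in SHR23, 949 in PEP45, 1154 in WER13 and 1134 in WER65. Both were lowest with iron, then in WT −Fe, then in PPL, and highest in the 2 WER lines. The order of pye-1, SHR23 and PEP45 between these differed, pye-1 being the highest of them for HB1 and the lowest for HRU1. HB1 rose 54.4-fold without iron (q = 5.98e-06) and HRU1 6.81-fold (q = 2.21e-05) in the authors' deposited table. In WER13, HRU1 rose 4.7-fold over WT −Fe (q = 6.45e-06 in the authors' deposited table). It was the most abundant of the 46 genes in each of the 6 groups other than wild type.

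RBOHD (chr5:19397041-19402061), the respiratory burst oxidase that makes signalling superoxide, went the other way in pye-1. Its level was 13.3 RPKM in WT +Fe, 208 in WT −Fe, 108 in pye-1, 207 in PPL, 193 in SHR23, 139 in PEP45, 196 in WER13 and 175 in WER65. WT −Fe was its highest group, PPL, SHR23 and WER13 lay near it, and pye-1 and PEP45 were the lowest of the iron-deficient groups. RBOHD rose 15.7-fold without iron (q = 2.07e-06 in the authors' deposited table) and fell 1.92-fold in pye-1 (the authors' deposited table gave q = 0.000128). Its 1.49-fold lower value in PEP45 was not listed.

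CML38 (chr1:28766750-28768138), a calmodulin-like calcium sensor known from low-oxygen stress granules, had no rise with iron loss in wild type and the widest differences of the 46 genes afterwards. It stood at 3.16 RPKM in WT +Fe, 2.5 in WT −Fe, 45.6 in pye-1, 3.75 in PPL, 67 in SHR23, 61.5 in PEP45, 59.3 in WER13 and 45.9 in WER65. The 3 low groups, WT +Fe, WT −Fe and PPL, stayed under 4 RPKM, and the other 5 were all above 45 RPKM. CML38 rose 18.2-fold in pye-1 (q = 7.66e-05), 26.8-fold in SHR23 (q = 4.81e-07) and 24.6-fold in PEP45 (q = 1.18e-07) in the authors' deposited tables.

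SRO5, a plant-specific protein related to RCD1, stood at 0.824 RPKM in WT +Fe, 6.28 in WT −Fe, 10.1 in pye-1, 7.3 in PPL, 13.3 in SHR23, 12 in PEP45, 14.1 in WER13 and 12.3 in WER65. It rose 7.62-fold without iron (q = 4.89e-05) and 2.24-fold in WER13 (q = 6.36e-06) in the authors' deposited tables, but 905 of its bases also belong to a gene on the opposite strand. ACHT5, an atypical thioredoxin, stood at 28.7 RPKM in WT +Fe, 19.6 in WT −Fe, 16 in pye-1, 18.2 in PPL, 32.5 in SHR23, 24.8 in PEP45, 26.9 in WER13 and 20.3 in WER65. Its order did not follow the other genes, with pye-1 lowest and SHR23 highest, and only the SHR23 table listed it, as 1.66-fold higher (q = 0.000778 in the authors' deposited table).

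The ethylene genes of the list are a receptor and a synthesis enzyme. ETR2 (chr3:8254559-8257888), the receptor, stood at 14.9 RPKM in WT +Fe, 13.3 in WT −Fe, 28.7 in pye-1, 15.6 in PPL, 27.9 in SHR23, 25.9 in PEP45, 29.1 in WER13 and 30.4 in WER65. ACO1 (chr2:8475276-8477733), the iron-dependent ACC oxidase that makes ethylene, stood at 16.1 RPKM in WT +Fe, 62.4 in WT −Fe, 131 in pye-1, 86.1 in PPL, 132 in SHR23, 124 in PEP45, 134 in WER13 and 135 in WER65. The 5 highest groups lay within narrow ranges for both genes, ETR2 was level in wild type with and without iron, and ACO1 was not. ACO1 rose 3.86-fold without iron (q = 0.00368 in the authors' deposited table). In WER65, ETR2 rose 2.29-fold (q = 8.57e-05) and ACO1 2.16-fold (q = 9.34e-06) in the authors' deposited table.

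The 16 other enzymes and domain proteins were mixed. The authors' deposited tables listed 9 of the 16 as higher without iron, 7 in pye-1, 8 in SHR23, 8 in PEP45, 10 in WER13 and 9 in WER65, with AT5G42200 the gene listed as lower in the last 5. The shares of all genes listed as higher in these tables were 10.3%, 8.89%, 7.56%, 8.43%, 8.99% and 7.87%, in the same order. AT4G27450, an aluminum-induced protein with YGL and LRDR motifs, was the most abundant, with 67.6 RPKM in WT +Fe, 304 in WT −Fe, 505 in pye-1, 345 in PPL, 674 in SHR23, 682 in PEP45, 686 in WER13 and 739 in WER65. It rose 4.5-fold without iron (q = 0.000134) and 2.43-fold in WER65 (q = 0.000942) in the authors' deposited tables. AT4G24110, annotated as an NADP-specific glutamate dehydrogenase, stood at 0.948 RPKM in WT +Fe, 22.2 in WT −Fe, 157 in pye-1, 36.6 in PPL, 239.9 in SHR23, 192 in PEP45, 197 in WER13 and 179.5 in WER65. It climbed at both steps, rising 23.4-fold without iron (q = 6.32e-05) and 10.8-fold more in SHR23 (q = 0.000111) in the authors' deposited tables.

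AT5G42200, a RING/U-box protein, ran against the rest. Its level was 15.7 RPKM in WT +Fe, 12 in WT −Fe, 5.92 in pye-1, 10.1 in PPL, 5.04 in SHR23, 6.49 in PEP45, 4.79 in WER13 and 4.97 in WER65. WT +Fe was its highest group, and pye-1 and the 4 lines other than PPL formed the low set. AT5G42200 fell 2.04-fold in pye-1 (q = 0.0105) and 2.51-fold in WER13 (q = 0.00155) in the authors' deposited tables.

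SAD6, a stearoyl-ACP desaturase with an iron centre, was not among the genes the rule for naming selected and is given here because it is an iron protein. It stood at 2.37 RPKM in WT +Fe, 41.4 in WT −Fe, 89.4 in pye-1, 64.6 in PPL, 125 in SHR23, 108 in PEP45, 147 in WER13 and 128 in WER65. SAD6 rose 17.5-fold without iron (q = 0.000186) and 3.56-fold in WER13 (q = 0.00586) in the authors' deposited tables. The remaining genes of the group spanned 0 to 114 RPKM. AT3G27220, a kelch-repeat protein, rose 10.6-fold without iron (q = 2.02e-06 in the authors' deposited table). AT5G44730 rose 5.65-fold (q = 4.16e-06 in the authors' deposited table). AT2G17850, a rhodanese-family protein, was listed at 0 in WT +Fe and stood at 9.73 RPKM in WT −Fe. The DUF581 gene AT5G47060 and the uridine kinase-like gene UKL3 were not listed for iron in wild type, and rose 1.67-fold (q = 0.000722) and 1.78-fold (q = 0.000953) in pye-1 in the authors' deposited table. AT5G47060 shares 280 bases with a gene on the opposite strand. EXL1 rose 5.69-fold, ACR7 2-fold and the phloem protein gene PP2-A11 2.78-fold without iron, with q = 0.0073, q = 0.00317 and q = 0.000142 in the authors' deposited table. These 8 genes were chosen after their values were seen. AT1G26270, AT1G74940 and AT2G15880 differed by less than 1.5-fold from WT −Fe in every other iron-deficient group.

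Small or unknown proteins made up 10 of the 46 genes. Of these, the authors' deposited tables listed 6 as higher without iron and 9 as higher in each of pye-1, SHR23, PEP45, WER13 and WER65, beside 10.3% of all genes without iron and 7.56% to 8.99% in the others. AT1G19530 had the highest level of the group, with 288 RPKM in WT +Fe, 290.3 in WT −Fe, 819 in pye-1, 309.6 in PPL, 827 in SHR23, 943 in PEP45, 753 in WER13 and 779.9 in WER65. AT4G39675 stood at 309 RPKM in WT +Fe, 261 in WT −Fe, 586 in pye-1, 317 in PPL, 478 in SHR23, 630.1 in PEP45, 586 in WER13 and 636 in WER65. Both were abundant with iron, were not higher without it in wild type, and separated pye-1 and the 4 lines from WT −Fe and PPL. AT1G19530 rose 2.82-fold (q = 0.00354) and AT4G39675 2.24-fold (q = 0.00426) in pye-1 in the authors' deposited table.

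AT5G66985 stood at 21.5 RPKM in WT +Fe, 129.7 in WT −Fe, 197 in pye-1, 159 in PPL, 286 in SHR23, 261 in PEP45, 291 in WER13 and 281 in WER65. It rose 6.04-fold without iron (q = 0.000104 in the authors' deposited table) and 2.24-fold in WER13 (q = 0.00074 in the authors' deposited table). AT3G10020 stood at 231 RPKM in WT +Fe, 181 in WT −Fe, 138 in pye-1, 198 in PPL, 70.7 in SHR23, 141 in PEP45, 62.4 in WER13 and 73.3 in WER65. Its values formed a set of SHR23, WER13 and WER65 near 70 RPKM and a set of pye-1 and PEP45 near 140 RPKM. PPL, at 198 RPKM, lay in neither set and above WT −Fe. AT3G10020 fell 2.56-fold in SHR23 (q = 9.13e-06), 2.9-fold in WER13 (q = 2.26e-05) and 2.47-fold in WER65 (q = 1.4e-05) in the authors' deposited tables, and its 1.31-fold and 1.29-fold lower values in pye-1 and PEP45 were not listed.

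The wound-responsive family gene AT4G10270 (chr4:6374734-6375210), whose promoter holds the extended pattern in both places printed above, stood at 0.0462 RPKM in WT +Fe, 59.4 in WT −Fe, 166 in pye-1, 70.8 in PPL, 173 in SHR23, 153 in PEP45, 193 in WER13 and 179.5 in WER65. AT4G10270 shares 377 bases with a noncoding RNA gene and 86 with a protein-coding gene, both on the opposite strand. Its WT +Fe value corresponds to 1.02 reads over the 3 libraries if the gene length, introns included, holds. No fold is therefore given for iron, for which the authors' deposited table lists q = 8.35e-06. AT4G10265, 1.07 kb away on chromosome 4 and of the same family, rose from 0.199 to 9.73 RPKM without iron (q = 0.000297 in the authors' deposited table). AT5G10040 was listed at 0 in WT +Fe and stood at 3.56 RPKM in WT −Fe and 27.4 in pye-1, but lies wholly inside TGA4 on the opposite strand over 435 bases. AT3G23170, 10.0 kb from ETR2 on chromosome 3, stood at 3.68 RPKM in WT +Fe, 2.28 in WT −Fe and 3.55 in PPL, and between 15.5 and 26.1 RPKM in the 5 other groups. It rose 11.4-fold in PEP45 (q = 1.31e-07 in the authors' deposited table). AT4G33560, also of the wound-responsive family, rose 16.1-fold without iron (q = 0.000141) and 5.56-fold in pye-1 (q = 0.000117) per the authors' deposited tables. AT1G33055 rose 3.55-fold without iron (q = 0.000145 in the authors' deposited table), but shares 225 bases with AT1G33050 on the same strand. These 5 genes were named after their values were seen. Another close pair of the 46 is AT3G10020 and HRA1, 4.42 kb apart on chromosome 3, which moved in opposite directions in SHR23, WER13 and WER65.

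Proteins that bind iron or heme are encoded by 6 of the genes, namely PCO1, PCO2, HB1, ACO1, SAD6 and RBOHD. The authors' deposited table listed 6 of the 6 as higher in WT −Fe than in WT +Fe, beside 65.2% of the 46 genes and 10.3% of all genes. In the table of pye-1 against WT −Fe, PCO2, HB1, ACO1 and SAD6 were listed as higher, beside 8.89% of all genes. That table listed RBOHD as lower and did not list PCO1. Their summed level was 37.2 RPKM in WT +Fe, 691 in WT −Fe, 1180 in pye-1, 844 in PPL, 1285 in SHR23, 1237 in PEP45, 1518 in WER13 and 1437 in WER65. Transcript levels say nothing about the iron content or activity of the proteins.

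The ERF-VII factors that act upstream are made without low oxygen and are controlled through protein degradation. Of the 13 genes of this upstream set (3 further ERF-VII genes, 3 further PCO genes, PRT6 and other N-degron components, and factors known to hold or share this degradation), the authors' deposited tables listed 0 as higher and 3 as lower without iron, beside 10.3% and 11.7% of all genes. RAP2.12 (chr1:20134844-20137013) stood at 254 RPKM in WT +Fe, 105 in WT −Fe, 196 in pye-1, 106 in PPL, 217 in SHR23, 198 in PEP45, 200.3 in WER13 and 195 in WER65. Among the iron-deficient groups WT −Fe and PPL were the low ones, as for most low-oxygen genes, but WT +Fe was its highest group and not its lowest. RAP2.12 fell from 254 to 105 RPKM without iron (q = 9.81e-05 in the authors' deposited table), and rose 1.87-fold in pye-1 (the authors' deposited table gave q = 4.07e-05).

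RAP2.2 stood at 187 RPKM in WT +Fe, 95.2 in WT −Fe, 74.6 in pye-1, 92.2 in PPL, 95.5 in SHR23, 74.1 in PEP45, 77.6 in WER13 and 72.3 in WER65. RAP2.3 stood at 325 RPKM in WT +Fe, 102 in WT −Fe, 40.5 in pye-1, 99.3 in PPL, 66.6 in SHR23, 48.1 in PEP45, 28.5 in WER13 and 18.4 in WER65. The 3 constitutive ERF-VII genes thus shared only the lower level without iron and then parted, RAP2.12 standing higher and RAP2.3 lower, by value, in pye-1 and the 4 lines other than PPL. RAP2.2 fell without iron (q = 0.000368 in the authors' deposited table). RAP2.3 fell without iron (q = 0.00968), in WER13 (q = 0.0227) and in WER65 (q = 0.00775) in the authors' deposited tables. PCO3, PCO4 and PCO5, the oxidases that low oxygen does not induce, were named in no table and stayed at 4.44 to 7.96, 8.83 to 11.6 and 21.6 to 28.2 RPKM. PRT6, the ubiquitin ligase of the pathway, ranged from 24.1 to 36.1 RPKM and was not listed.

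**Figure D3:**
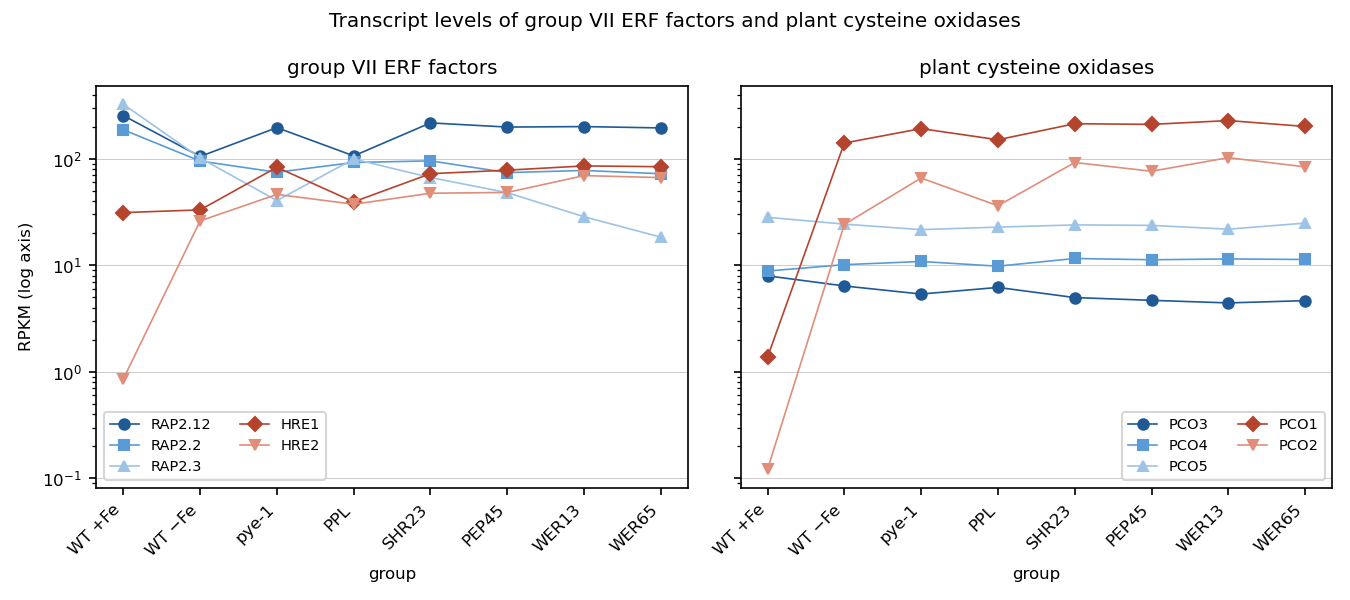
Level of the 5 ERF-VII genes (left) and the 5 PCO genes (right) in the 8 groups, each point being the authors' mean RPKM on a log axis, with the members of the low-oxygen list in red and the other genes in blue. PCO1 and PCO2 start near or under 1 RPKM in WT +Fe and lie above PCO3, PCO4 and PCO5 or near PCO5 in every other group, and RAP2.12 and RAP2.3 diverge in pye-1 and in the lines other than PPL.

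Close relatives of the enzymes on the list were followed as well. Of 13 such paralogs, the authors' deposited tables listed 2 as higher and 2 as lower without iron, and 2 as higher and 4 as lower in pye-1. Of all genes, 10.3% and 11.7% were listed without iron and 8.89% and 10.2% in pye-1, so that the counts without iron are near the background. In the lines, the authors' deposited tables listed 1 paralog as higher in each of SHR23, PEP45, WER13 and WER65, and 2, 2, 1 and 3 as lower, beside 7.56% to 8.99% of all genes as higher and 9.64% to 14.1% as lower. PDC3 fell from 6.23 RPKM in WT +Fe to 1.56 in WT −Fe (q = 0.000259) and to 0.581 RPKM in pye-1 (q = 0.00309) per the authors' deposited tables. SUS3 fell from 17.3 to 9.12 RPKM without iron (q = 0.00171 in the authors' deposited table) and rose to 16.9 RPKM in the mutant pye-1 (in the authors' deposited table, q = 0.00124). SUS5 fell to 1.61 RPKM in pye-1 from 3.01 in WT −Fe (q = 0.0302), and SUS6 to 3.31 from 5.06 (q = 0.0486), in the authors' deposited table.

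Among the phosphofructokinases, PFK1 stood at 46.4 RPKM in WT +Fe, 117 in WT −Fe, 52.5 in pye-1, 100.1 in PPL, 83.8 in SHR23, 59.8 in PEP45, 81.1 in WER13 and 75.1 in WER65. PFK1 rose without iron (q = 2.38e-05) and fell in pye-1 (q = 5.22e-06), in PEP45 (q = 4.25e-06) and in WER65 (q = 0.000195) in the authors' deposited tables. PFK3 rose from 2.26 to 11.8 RPKM without iron (q = 3.73e-05) and to 21.9 RPKM in pye-1 (q = 0.00125) per the authors' deposited tables. The second hemoglobin gene, HB2, rose from 4.71 RPKM in WT −Fe to 8.34 in SHR23 (q = 0.00207 in the authors' deposited table).

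Other genes of anaerobic carbon metabolism, none of them on the core list, numbered 16. The authors' deposited tables listed 8 as higher and 1 as lower without iron, and 4 as higher and 2 as lower in pye-1. The background was 10.3% higher and 11.7% lower without iron, and 8.89% and 10.2% in pye-1, so that the counts of lower genes are near it. SHR23 had 2 listed as higher and 2 as lower, PEP45 and WER13 each 4 and 2, and WER65 3 and 2, in the authors' deposited tables, beside 7.56% to 8.99% of all genes as higher and 9.64% to 14.1% as lower. LDH, lactate dehydrogenase, stood at 14.1 RPKM in WT +Fe, 39.7 in WT −Fe, 70.8 in pye-1, 49.3 in PPL, 73 in SHR23, 73.8 in PEP45, 79.4 in WER13 and 53 in WER65. It rose 2.81-fold without iron (q = 4.11e-05) and 2-fold in WER13 (q = 7.06e-06) in the authors' deposited tables, and its 1.34-fold value in WER65 was not listed.

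Several glycolytic genes rose without iron in wild type. ENO2, enolase, rose from 447 to 1217 RPKM (q = 2.75e-05 in the authors' deposited table) and stayed between 1069 and 1479 RPKM in the other iron-deficient groups, in none of which it was listed. Cytosolic phosphoglucose isomerase rose from 37.5 to 59.2 RPKM (q = 0.000313 in the authors' deposited table). GAPC1, glyceraldehyde-3-phosphate dehydrogenase, rose from 643 to 1204 RPKM without iron (q = 0.000759) and to 1872 in SHR23 (q = 0.000232) in the authors' deposited tables. FBA6, an aldolase, rose from 225 RPKM in WT −Fe to 391 in the mutant pye-1 (in the authors' deposited table, q = 7.47e-05).

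GAD4, a glutamate decarboxylase, rose from 0.144 to 2.33 RPKM without iron (q = 0.00015) and to 16.8 RPKM in pye-1 (q = 0.000178) per the authors' deposited tables, while GAD2 fell from 76 RPKM in WT −Fe to 45.2 RPKM in pye-1 (q = 0.000155) and 32.9 in WER13 (q = 1.35e-06) in the authors' deposited tables. ALDH2B7, a mitochondrial aldehyde dehydrogenase, stood at 93.4 RPKM in WT +Fe, 39.4 in WT −Fe, 20.4 in pye-1, 30.2 in PPL, 24 in SHR23, 16.2 in PEP45, 15.3 in WER13 and 17 in WER65. It thus ran opposite to ADH1 and PDC1, falling without iron (q = 0.00153) and again in pye-1 (q = 8.39e-05) and PEP45 (q = 7.2e-07) in the authors' deposited tables.

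Set against pye-1, the lines divided into PPL and the rest. No authors' table of these 5 comparisons was used, so genes at least 2-fold apart were counted without a test. In PPL, 14 of the 46 were at least 2-fold lower than in pye-1 and 0 were higher, beside 2.93% and 3.72% of all genes. The 14 genes were PDC1, PDC2, SUS1, HRE1, LBD41, CML38, AT2G17850, AT4G24110, AT5G10040, AT4G10270, AT4G10265, AT4G33560, AT3G23170 and AT1G19530. CML38 stood 12.2-fold lower in PPL than in pye-1 and SUS1 5.11-fold lower, while RBOHD stood 1.92-fold higher. The median difference of the genes that passed the filter was -0.71 on the log2 scale, beside 0.00 for all genes, and 8 of the 46 were higher by value, beside 49.7%.

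In the 4 other lines, few of the genes differed 2-fold from pye-1, as was so of genes in general. In SHR23, 1 gene, ACHT5, was at least 2-fold higher than in pye-1 and 0 were lower, beside 2.26% and 1.74% of all genes, with a median difference of 0.09 beside 0.00 for all genes. By value 29 of the 46 were higher in SHR23 than in pye-1, beside 49.7% of all genes. In PEP45 0 genes passed 2-fold either way, beside 1.02% higher and 0.273% lower of all genes, with a median of 0.13, and 35 of the 46 were higher by value, beside 50.4%. WER13 had 0 higher and 1 lower gene, AT3G10020, beside 0.809% and 1.92% of all genes, with a median of 0.26, and 39 of the 46 were higher by value, beside 49.9%. In WER65 0 genes passed 2-fold either way, beside 1.13% and 1.07%, with a median of 0.19, and 37 of the 46 were higher by value, beside 48.6%. In WER13 and WER65 these medians lay above the upper quartile of all genes, 0.14 and 0.13. These comparisons share the pye-1 samples. In these means without replicate values, differences of this size cannot be set against the spread between samples.

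**Figure D4:**
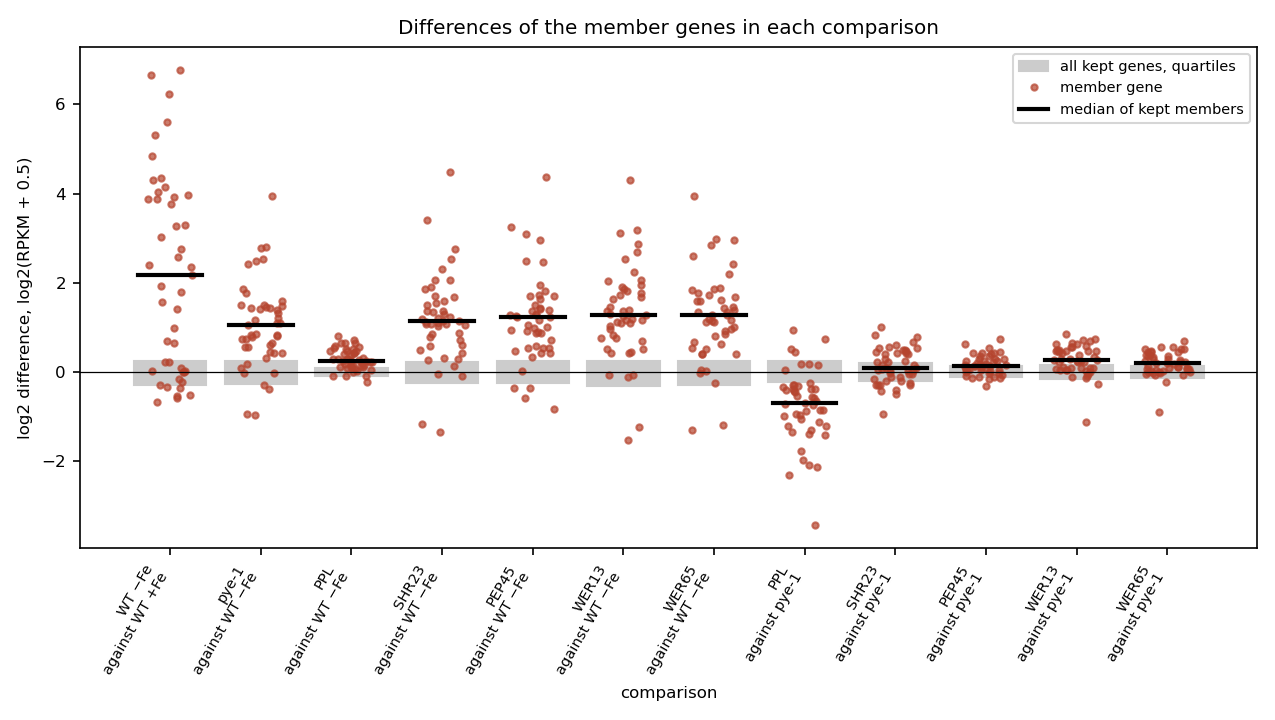
Differences of the 46 genes (red points) in 12 comparisons on log2(RPKM + 0.5), with the median of the genes that passed the 1 RPKM filter (black line) and the middle 50% of all genes that passed it (grey box). The points spread upward when WT −Fe is set against WT +Fe and when pye-1, SHR23, PEP45, WER13 and WER65 are set against WT −Fe, lie near 0 for PPL against WT −Fe, and lie below 0 for PPL against pye-1.

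Over the 8 groups, 35 of the 46 genes had their lowest level in WT +Fe, beside 32.4% of all genes that passed the filter. The highest level was in WER13 for 22 genes (12.3% of all genes), in WER65 for 7 (6.32%), in SHR23 for 6 (11.8%) and in PEP45 for 6 (7.15%). It was in WT +Fe for 3 (32.8%), in WT −Fe for 1 (9.19%), in PPL for 1 (7.02%) and in pye-1 for 0 (13.4%). The summed level of the 46 genes was 1406 RPKM in WT +Fe, 3361 in WT −Fe, 7317 in pye-1, 4177 in PPL, 7819 in SHR23, 8102 in PEP45, 8822 in WER13 and 8611 in WER65. As a share of the RPKM of all genes this ran from 0.203% in WT +Fe to 1.35% in WER13. Genes of the list at 100 RPKM or more numbered 3 in WT +Fe, 10 in WT −Fe, 12 in PPL and 18 to 20 in the other groups.

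The 15 green-tissue transcripts summed to 354 RPKM in WT +Fe, 339.8 in WT −Fe, 96.9 in pye-1, 128 in PPL, 48.4 in SHR23, 390.6 in PEP45, 24.1 in WER13 and 21.9 in WER65. RBCS1B, RBCS2B, RBCS3B and LHCB2.1 were at 0 in WER65, and 0 of the 15 were at 0 in any other group. WER13 and WER65 had the lowest green-tissue sums and the highest sums of the low-oxygen genes, 8822 and 8611 RPKM. The groups pye-1 and SHR23 were also low in the first sum and high in the second. PEP45, with the highest green-tissue sum, had a low-oxygen sum of 8102 RPKM. WT −Fe and WT +Fe differed little in the green-tissue sum. PPL, low in it, had a low-oxygen sum of 4177 RPKM, beside 3361 in WT −Fe. Of the root markers, the authors' deposited tables listed the endodermis gene CASP1 as lower in pye-1, SHR23, PEP45, WER13 and WER65. CASP1 fell from 84.8 RPKM in WT −Fe to between 26.7 and 45.8 RPKM in these groups, and stood at 72.6 RPKM in PPL. The same tables listed GL2 as lower in pye-1, SHR23, PEP45 and WER13, and CO2 as lower in pye-1, SHR23 and WER13. WER was listed as higher in SHR23. SHR, SCR, MYB36, PEP, PLT1 and PLT2 were listed in none of the tables that set pye-1 or a line against WT −Fe. The 10 root markers together summed to 327 RPKM in WT +Fe, 147 in WT −Fe and 81.1 to 139 RPKM in the other groups. CASP1 alone made up 246 RPKM of the sum in WT +Fe and 84.8 RPKM of that in WT −Fe. The part of these marker differences in the levels of the low-oxygen genes was not tested.

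**Figure D5:**
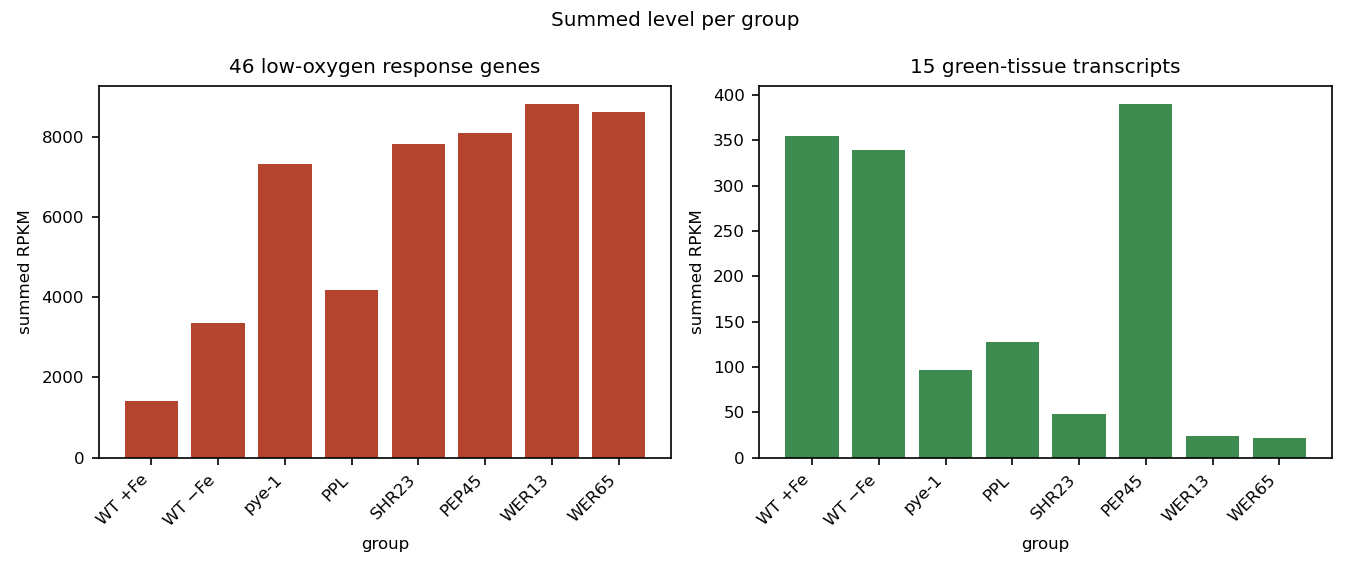
Summed RPKM of the 46 low-oxygen genes (left) and of 15 green-tissue transcripts (right) in the 8 groups, each bar being a sum of the authors' means with the axis starting at 0. The low-oxygen sum is lowest in WT +Fe and highest in WER13, whereas the green-tissue sum is highest in PEP45 and lowest in WER65.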

How the data were processed

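RNA of razor-cut roots was made into poly(A)-selected directional libraries, per the labels' protocols. Per the submitters' processing notes, TAIR10, FastQC, TopHat2 and edgeR were used, with no roles or versions; how reads were counted, with which strand setting and lengths, and which test gave the q-values is not given in the sources used here. The authors deposited RPKM as 1 column per group, taken here as a mean of 3 libraries. The low-value steps cannot settle that number, because at most 3 per group were sought. The authors also deposited 7 tables of listed genes with q-values, none above 0.05 and nearly all for differences of 1.5-fold or more. The table headed PYE was matched to PPL by its values, and 1 sheet of text about promoters was left out. Columns left without a group numbered 0.

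The 46 genes, their role groups, the iron-protein, paralog, upstream, metabolic and tissue lists and the alternatives were chosen with earlier results of these data known. Genes at 1 RPKM or more in at least 1 group (19767, with 45 of the 46) formed the background, and differences were taken on log2(RPKM + 0.5), which understates changes of low genes. The plan foresaw limma should values per library turn up, and with 1 mean per group no test, standard deviation or interval was computed. Named with all 8 values were the first 5 role groups, the 5 most abundant genes of the other role groups and every gene listed opposite to most; of the context lists, up to 4 listed genes per list and comparison with the smallest q-values. Identifiers were matched to RefSeq TAIR10.1 (46 of 46, and 32835 of all 33602, or 97.7%), which gave coordinates, promoters and overlaps; close copies were sought with blastn 2.17.0 at 85% identity or more over at least 100 bases. The median step was tested on simulated data with python 3.11.15, pandas 2.3.3 and numpy 2.4.6. Protein sequences were not used here, and 1 promoter sequence is not reported here.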

Additional observations from a re-analysis of the deposited data

How the results depend on the processing

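Each count of listed genes was recomputed at q under 0.01, at a listed change of at least 2-fold, and among genes with a mean of at least 5 RPKM over the groups compared. All 21 such counts were within 1.5 times the reported count. Of the reported 32 in pye-1, 23 changed at least 2-fold, and of the 30 in WT −Fe, 25 had a mean of at least 5 RPKM. Medians were recomputed with pseudocounts of 0.1 and 1, with no filter, with a filter of 5 RPKM and after centring on all genes. All 60 kept their direction and stayed within 0.1 on the log2 scale or 1.5 times the reported median. The median for iron in wild type ran from 2.0 to 2.26, and that for pye-1 from 0.95 to 1.07. Leaving out single samples was not run, because the deposited columns hold 1 mean per group. No paired analysis was possible because the columns carry no replicate numbers. Levels near 0 in WT +Fe limit the folds of PCO2, AT4G10270 and AT4G10265.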
